A study of Rattus norvegicus with 4 samples.

Results

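The autophagy machinery genes are the transcripts of the proteins that start, build, load and fill the autophagosome, together with a pair of transcription factors that control them. They were chosen by gene name from the FPKM tables of rat H9C2 cells: names beginning with Atg and a digit, the kinases Ulk1 to Ulk4, names beginning with Map1lc3 or Gabarap, Wipi1 and Wipi2, and 12 further named genes. This gave 40 of the 33778 listed genes. The rule used names and no measured values, but it was set with earlier results of these data known. The cells carried no engineered allele in the labels and differed in treatment only: 2 libraries came from cells kept for 48 h with PAGln at 100 µM and 2 from control cells kept without it. PAGln is phenylacetylglutamine, a conjugate of glutamine with phenylacetate, a product of gut bacteria. H9C2 is an established line from embryonic rat heart that is labelled as cardiac myocytes. FPKM are reads per unit of gene length and of library depth, so levels can be compared between genes.

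Autophagy carries cytoplasm to the lysosome inside a vesicle with a double membrane. A kinase complex around ULK1 starts the process, a lipid kinase complex around Beclin 1 marks the growing membrane, and lipid transfer proteins feed it. Conjugating enzymes then attach proteins of the ATG8 family (LC3 and GABARAP) to the membrane, where cargo receptors such as p62 bind them. In heart muscle the pathway clears damaged mitochondria and protein aggregates and rises with starvation.

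The libraries held 13507110 and 13585802 reads with PAGln and 14934592 and 14984712 reads in control, as recovered from the FPKM steps. Among the defining markers of cardiac myocytes 2 of 9 reached a mean of 1 FPKM: Tnnt2, cardiac troponin T, had a mean of 157 FPKM and Pln 2.47 FPKM, while Myh6 had 0.16 FPKM and Actc1 0.011 FPKM. Skeletal myoblast markers reached that mean for 6 of 8 genes, with Myf5 and Pax7 at 0 in all 4 libraries. Smooth muscle markers did so for 5 of 5 and fibroblast markers for 3 of 6, with Dcn and Lum at 0 in all 4 libraries. Endothelial and leukocyte markers summed to at most 1.15 and 0.942 FPKM in any library. Of the 5 endothelial markers listed, 4 had a row, and Pecam1 had none. Separate cultures are not named in the labels, so the p-values measure only how far these libraries spread, and that spread may be technical. Skeletal myoblast markers summed to 465 and 412 FPKM with PAGln and 413 and 449 FPKM in control. Cardiac markers summed to 188 and 148 FPKM with PAGln and 130 and 174 FPKM in control, nearly all of it Tnnt2. Smooth muscle markers summed to 5296 and 4032 FPKM with PAGln and 5181 and 5211 FPKM in control. Fibroblast markers summed to 3311 and 3427 FPKM with PAGln and 3439 and 3491 FPKM in control.

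The libraries did not order themselves by treatment. Over the 40 members the root mean square difference, on log2(FPKM + 1), was 0.13 between PAGln 1 and control 2 and 0.16 between PAGln 2 and control 1. It was 0.19 between both PAGln libraries and 0.24 between both control libraries. PAGln 1 and control 1 differed by 0.20, and PAGln 2 and control 2 by 0.25. Over all tested genes the same pairs were closest, at 0.365 (PAGln 1 and control 2) and 0.345 (PAGln 2 and control 1). There it was 0.398 between both PAGln libraries and 0.400 between both control libraries. Other features of the libraries split the same way. Mitochondrial genome transcripts took 3.37% of reads in PAGln 1 and 3.51% in control 2, against 4.42% in PAGln 2 and 4.10% in control 1. The 10 most abundant genes took 7.85% and 7.95% of reads in PAGln 1 and control 2, against 8.58% and 8.55% in PAGln 2 and control 1. Their part in the values that follow was not tested.

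All 40 members had a mean level of at least 1 FPKM and so stood among the 12334 genes tested. None of the 40 passed limma at an adjusted p under 0.05, none had an unadjusted p under 0.05, and limma's voom on the recovered reads called none either. The background over all tested genes was 0% called and 2.12% with an unadjusted p under 0.05 (262 genes), and voom called 0 genes with 134 under that unadjusted p. Of the members 21 were higher and 19 lower with PAGln, with a median log2 fold change of 0.0073, beside a median of 0.0021 and 50.6% higher over all tested genes. The 95% confidence interval of every member lay within 1 log2 unit of 0, and 27 intervals lay within 0.5. In bulk RNA a lower level per cell cannot be told apart from fewer cells of a type.

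**Figure D1:**
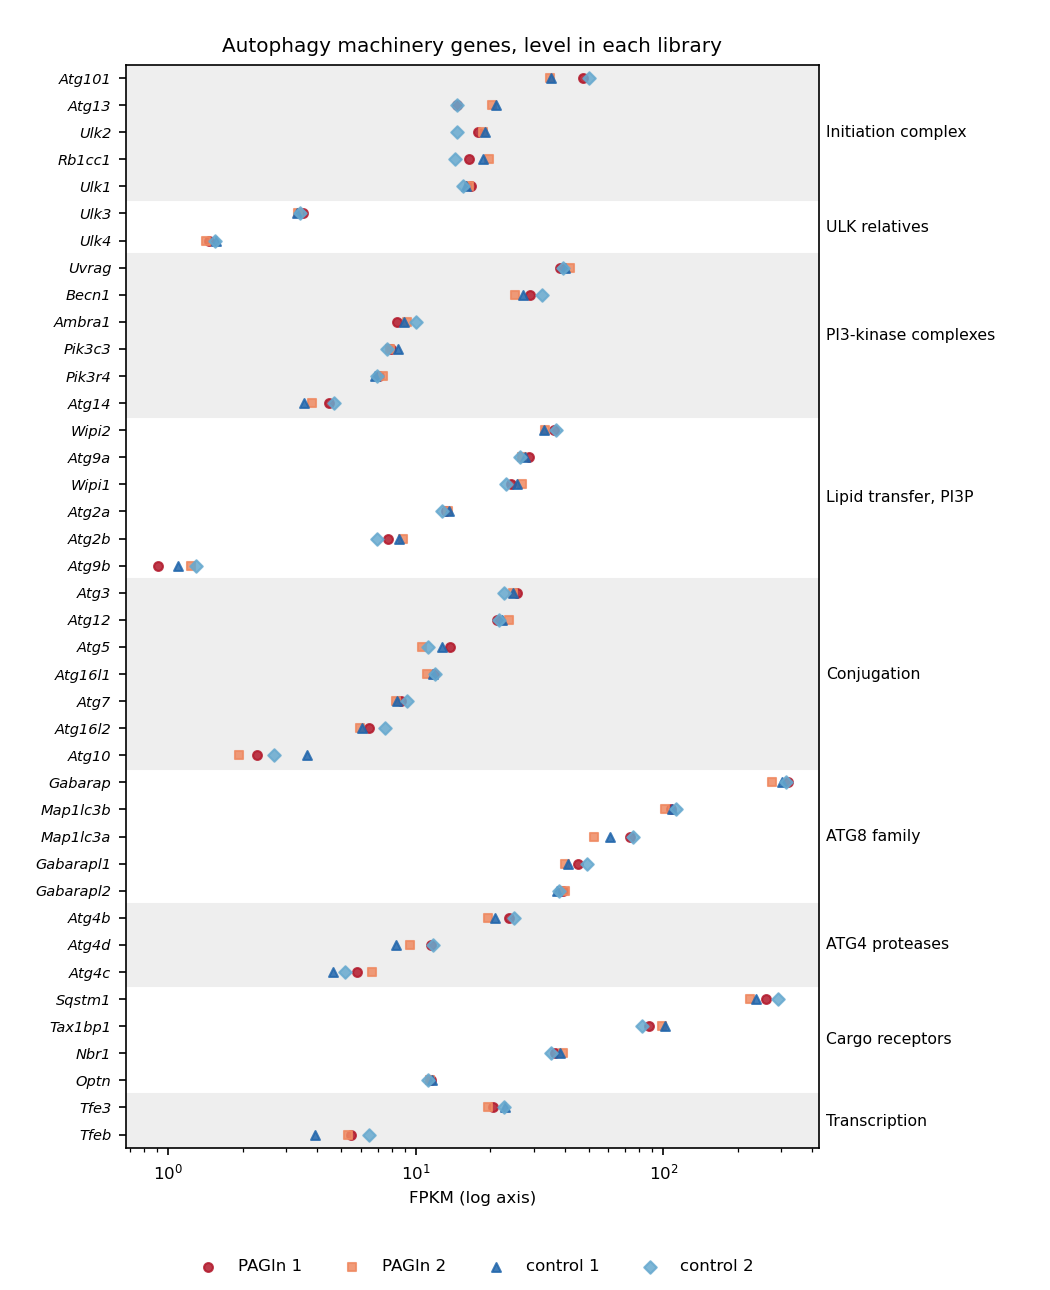
FPKM of the 40 members in each of the 4 libraries on a log axis, grouped by role, with 1 point per library and no averaging. Levels run from about 1 FPKM for Atg9b to about 318 FPKM for Gabarap, and the points of PAGln and control overlap for most members.

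Promoter sequences are shown first because Tfeb and Tfe3, which are members themselves, are known in human and mouse cells to bind E-boxes in autophagy and lysosome promoters, and because NRF2 acts on some autophagy genes through antioxidant response elements. Of the 40 members, 36 matched a RefSeq promoter window by symbol (build GRCr8, 250 bases before to 50 after the start). Rb1cc1, Becn1, Atg9a and Map1lc3a were not matched. The E-box core CACGTG, which reads the same on both strands, lay in 3 of these 36 members (8.33%), namely Atg3, Atg5 and Atg14, and in 6.42% of all 33469 windows. Its longer form TCACGTGA, which contains the core, lay in Atg3 only among the members and in 0.777% of all windows. The letters TGACNNNGC, searched on both strands as the core of the antioxidant response element, lay in 6 members (16.7%) and in 12.1% of all windows. The 6 were Atg4b, Atg4d, Atg10, Gabarap, Map1lc3b and Ulk2.

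The 4 stretches below are the 250 bases before the start of Atg3 and Atg5, whose E-boxes lie before the start, of Gabarap, the most abundant member, and of Atg10, the member with the smallest p. Capitals mark matches to any of the 3 motifs. They lie at chr11:69159281-69159530 (minus strand), chr20:49380585-49380834 (plus strand), chr10:55213215-55213464 (plus strand) and chr2:24133369-24133618 (minus strand) in GRCr8.

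Atg3: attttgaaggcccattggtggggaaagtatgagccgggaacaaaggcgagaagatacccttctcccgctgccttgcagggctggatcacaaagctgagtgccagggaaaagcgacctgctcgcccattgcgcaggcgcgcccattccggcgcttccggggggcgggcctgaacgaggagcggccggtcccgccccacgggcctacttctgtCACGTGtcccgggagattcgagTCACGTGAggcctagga

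Atg5: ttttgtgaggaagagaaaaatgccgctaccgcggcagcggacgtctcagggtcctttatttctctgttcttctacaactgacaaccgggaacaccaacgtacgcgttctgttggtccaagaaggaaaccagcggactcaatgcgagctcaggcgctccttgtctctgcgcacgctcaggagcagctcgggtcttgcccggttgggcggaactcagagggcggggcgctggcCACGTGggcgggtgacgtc

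Gabarap: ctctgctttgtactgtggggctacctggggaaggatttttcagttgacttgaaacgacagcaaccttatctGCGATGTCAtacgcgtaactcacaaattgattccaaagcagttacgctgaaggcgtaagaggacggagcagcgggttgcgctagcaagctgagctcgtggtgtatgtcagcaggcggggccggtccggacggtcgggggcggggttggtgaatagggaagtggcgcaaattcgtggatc

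Atg10: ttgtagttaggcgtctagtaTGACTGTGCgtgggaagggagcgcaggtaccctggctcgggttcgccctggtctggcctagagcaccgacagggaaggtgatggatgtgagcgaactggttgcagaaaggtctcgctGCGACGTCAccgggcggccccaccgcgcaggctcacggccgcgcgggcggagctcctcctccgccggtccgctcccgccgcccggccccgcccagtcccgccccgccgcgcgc

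Atg3 carried a pair of E-box cores, beginning 39 and 16 bases before the start, and Atg5 carried a single core beginning 19 bases before it. In Atg10 the antioxidant matches began 230 and 113 bases before the start, and in Gabarap the match began 179 bases before it. The windows of the members were rich in G and C, with a median of 60.7% and a range of 45.7% to 76.7%, beside a median of 51.7% over all windows. Letters that match are not shown to be bound in these cells.

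The transcription factors were both expressed, Tfe3 more than Tfeb. Tfe3, on the X chromosome (15575934 to 15587419 in the deposited coordinates, whose build is not given), had 20.6 and 19.6 FPKM with PAGln and 22.9 and 22.8 FPKM in control. Both PAGln libraries lay below both control libraries. The averages were 20.1 ± 0.681 FPKM with PAGln and 22.8 ± 0.0968 FPKM in control (SD, n = 2 each), with a log2 difference of -0.18 (SE 0.10, 95% interval -0.44 to 0.086, limma adjusted p = 1.00). Tfeb, a related factor that is held in the cytosol when mTORC1 is active, had 5.48 and 5.34 FPKM with PAGln and 3.93 and 6.47 FPKM in control. Both control libraries lay outside the PAGln pair, on opposite sides.

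Genes of the initiation complex had summed levels of 113 and 110.3 FPKM with PAGln and 109.8 and 109 FPKM in control, and 3 of its 5 genes were higher with PAGln. Atg101, which stabilises the partner of the kinase, was the most abundant, at 47.2 and 35.0 FPKM with PAGln and 35.1 and 49.9 FPKM in control. PAGln 1 and control 2 were the high libraries, and the spread within each group exceeded the difference between groups. The fitted log2 difference was -0.042 (SE 0.22, 95% interval -0.61 to 0.53, limma adjusted p = 1.00) and turned to 0.21 without control 2 and to 0.17 without PAGln 2. Atg13, the scaffold that binds Atg101, had 14.7 and 20.3 FPKM with PAGln and 21.0 and 14.7 FPKM in control. Its high libraries were PAGln 2 and control 1, the opposite pair. Rb1cc1, the large scaffold FIP200, had the same upper pair as Atg13, with 16.4 and 19.8 FPKM in PAGln and 18.6 and 14.4 FPKM in control. The log2 difference was 0.13 (SE 0.17, 95% interval -0.30 to 0.57, limma adjusted p = 1.00) and turned to -0.041 without control 2.

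Of the kinases, Ulk1, the main one of the complex, had 16.7 and 16.4 FPKM with PAGln and 16.0 and 15.5 FPKM in control, and both PAGln libraries lay above both control libraries by a small margin (log2 fold change 0.071, 95% interval -0.20 to 0.34). Ulk2, its close relative, had 17.9 and 18.8 FPKM with PAGln and 19.1 and 14.7 FPKM in control. Control 2 was the low library for Ulk2, and the log2 difference of 0.12 (SE 0.15, limma adjusted p = 1.00) turned to -0.058 without it. Ulk3, a relative studied in hedgehog signalling, averaged 3.42 ± 0.108 FPKM with PAGln and 3.36 ± 0.0788 FPKM in control (SD, n = 2 each), with a log2 difference of 0.021 (SE 0.16, limma adjusted p = 1.00). Ulk4, a pseudokinase with no settled part in autophagy, was near the filter at 1.46 and 1.42 FPKM with PAGln and 1.56 and 1.54 FPKM in control.

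The lipid kinase complexes had 3 of 6 genes higher with PAGln and were led by Uvrag, the subunit of the endosomal form, at 38.1 and 42.0 FPKM with PAGln and 40.2 and 39.3 FPKM in control. Its PAGln libraries lay on both sides of the control pair, and the log2 difference was 0.010 (SE 0.10, 95% interval -0.26 to 0.28, limma adjusted p = 1.00). Becn1, Beclin 1, the regulatory subunit on chromosome 10 (89209940 to 89225297), had 28.9 and 25.2 FPKM with PAGln and 27.0 and 32.2 FPKM in control. Control 2 was the highest library, and without it the log2 fold change of -0.12 (SE 0.14, 95% interval -0.48 to 0.23, limma adjusted p = 1.00) was 0.00040. Pik3c3, the catalytic subunit VPS34, averaged 7.89 ± 0.0421 FPKM with PAGln and 8.06 ± 0.544 FPKM in control, and Pik3r4, its regulatory subunit VPS15, averaged 7.21 ± 0.198 FPKM with PAGln and 6.92 ± 0.0869 FPKM in control (SD, n = 2 each). Atg14, which directs the complex to the site of autophagosome formation, was the least abundant at 4.46 and 3.82 FPKM with PAGln and 3.52 and 4.69 FPKM in control. In all 4 libraries Uvrag lay above Becn1 and Atg14 well under it. Ambra1, a scaffold that regulates Beclin 1, had 8.42 and 9.23 FPKM with PAGln and 8.95 and 9.99 FPKM in control.

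Of the genes of membrane supply, 4 of 6 were higher with PAGln. Wipi2, which reads the lipid mark and recruits the conjugation machinery, was the most abundant at 36.1 and 33.4 FPKM with PAGln and 33.0 and 36.8 FPKM in control, with a log2 difference of -0.0052 (SE 0.11, 95% interval -0.29 to 0.28, limma adjusted p = 1.00). PAGln 1 and control 2 were its higher libraries. Wipi1, a related reader, had 24.1 and 26.9 FPKM with PAGln and 25.6 and 23.1 FPKM in control, with the opposite pair higher. Atg9a, the scramblase on the vesicles that seed the membrane, averaged 27.8 ± 1.24 FPKM with PAGln and 26.9 ± 0.798 FPKM in control (SD, n = 2 each). Its paralog Atg9b was the least abundant member, at 0.904 and 1.24 FPKM with PAGln and 1.09 and 1.29 FPKM in control, from 34 to 54 reads a library. The lipid transfer proteins had 13.2 and 13.5 FPKM with PAGln and 13.6 and 12.8 FPKM in control for Atg2a. Atg2b had 7.69 and 8.84 FPKM with PAGln and 8.54 and 6.96 FPKM in control.

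The conjugation enzymes had 3 of 7 genes higher with PAGln and held the member with the smallest p. Atg10, the enzyme that joins ATG12 to ATG5, lies on chromosome 2 from 19853546 to 20152884 on the minus strand. It had 2.27 and 1.93 FPKM with PAGln, from 49 and 42 reads, and 3.63 and 2.67 FPKM in control, from 86 and 64 reads. Both PAGln libraries lay below both control libraries, with averages of 2.10 ± 0.240 FPKM with PAGln and 3.15 ± 0.681 FPKM in control (SD, n = 2 each). The log2 fold change was -0.41 (SE 0.21, 95% interval -0.94 to 0.12, limma adjusted p = 1.00), and -0.24 without control 1. Per read sequenced, the PAGln total was 0.67 times the control total, with an exact 95% interval of 0.511 to 0.875 that covers counting error only and not the spread between libraries.

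Other conjugation genes differed less. Atg3, the enzyme that transfers ATG8 proteins to lipid, was the most abundant at 25.7 and 24.6 FPKM with PAGln and 24.6 and 22.8 FPKM in control, with a log2 difference of 0.082 (SE 0.11, 95% interval -0.19 to 0.35, limma adjusted p = 1.00). PAGln 2 and control 1 were nearly level for it. Atg12, the ubiquitin-like modifier, had 21.3 and 23.9 FPKM with PAGln and 22.3 and 21.6 FPKM in control. Its target Atg5 had 13.8 and 10.6 FPKM with PAGln and 12.8 and 11.2 FPKM in control, so replicate 1 was the higher library in both groups. Atg16l1, which places the ATG12 and ATG5 conjugate on the membrane, averaged 11.5 ± 0.517 FPKM with PAGln and 11.9 ± 0.149 FPKM in control, and the activating enzyme Atg7 averaged 8.50 ± 0.286 FPKM with PAGln and 8.82 ± 0.559 FPKM in control (SD, n = 2 each). Atg16l2, a paralog of Atg16l1, had 6.47 and 5.94 FPKM with PAGln and 6.08 and 7.52 FPKM in control.

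The ATG8 family was the most abundant group of the machinery. Its 5 genes summed to 583 and 509.8 FPKM with PAGln and 548 and 588 FPKM in control. Gabarap, on chromosome 10 from 56601288 to 56604221, had 318 and 276 FPKM with PAGln and 300.3 and 312 FPKM in control, and made 54.5% and 54.1% of the pool with PAGln and 54.8% and 53.1% in control. PAGln 1 was the highest and PAGln 2 the lowest library by level, so the PAGln pair enclosed the control pair. The log2 difference was -0.050 (SE 0.12, 95% interval -0.36 to 0.26, limma adjusted p = 1.00) and turned to 0.052 without PAGln 2.

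Map1lc3b, the LC3 form used most as a marker of autophagosomes, lies on chromosome 19 from 53629779 to 53646058. It had 107 and 102 FPKM with PAGln and 108 and 113 FPKM in control. Both PAGln libraries lay below both control libraries, PAGln 1 narrowly, and the log2 fold change was -0.079 (SE 0.098, 95% interval -0.33 to 0.17, limma adjusted p = 1.00). Map1lc3a had 73.6 and 52.5 FPKM with PAGln and 61.0 and 75.5 FPKM in control, with PAGln 1 and control 2 high. Gabarapl1 showed the same order at 45.3 and 40.0 FPKM with PAGln and 41.4 and 49.2 FPKM in control. Gabarapl2, also called GATE-16, was the 1 gene of the family with a positive log2 difference. It had 39.2 and 40.0 FPKM with PAGln and 37.1 and 37.9 FPKM in control, both PAGln libraries above both control libraries. The log2 difference was 0.076 (SE 0.096, 95% interval -0.17 to 0.32, limma adjusted p = 1.00).

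**Figure D2:**
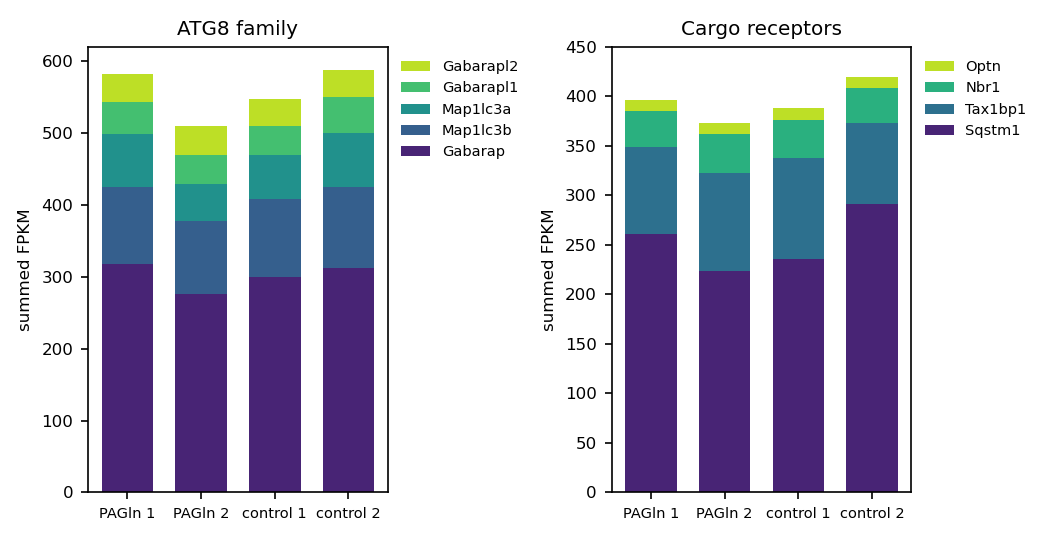
Summed FPKM of the ATG8 family (left) and of the cargo receptors (right), stacked by gene, 1 bar per library with no replicate error. Gabarap makes 53.1% to 54.8% of the ATG8 sum and Sqstm1 59.9% to 69.4% of the receptor sum, and neither sum separates PAGln from control.

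The ATG4 proteases cut ATG8 proteins before conjugation and release them afterwards. Atg4b, the main protease for LC3, had 23.8 and 19.5 FPKM with PAGln and 20.8 and 25.0 FPKM in control, with a log2 difference of -0.080 (SE 0.15, 95% interval -0.47 to 0.31, limma adjusted p = 1.00). Atg4d had 11.6 and 9.48 FPKM with PAGln and 8.35 and 11.7 FPKM in control. Both were high in PAGln 1 and control 2. Atg4c, on chromosome 5 from 117877594 to 117931003, had 5.77 and 6.64 FPKM with PAGln (107 and 124 reads) and 4.61 and 5.18 FPKM in control (94 and 107 reads). Both PAGln libraries lay above both control libraries, and the log2 fold change was 0.29 (SE 0.15, 95% interval -0.10 to 0.67, limma adjusted p = 1.00), the largest positive value among the members. Atg4a was not analysed here.

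The cargo receptors differed from one another in order as well as in level. Sqstm1, the p62 receptor for ubiquitinated cargo on chromosome 10 (35704730 to 35716294), had 261 and 224 FPKM with PAGln and 236 and 291 FPKM in control. Control 2 was the highest and PAGln 2 the lowest library, and the log2 fold change of -0.12 (SE 0.15, 95% interval -0.50 to 0.27, limma adjusted p = 1.00) turned to 0.034 without control 2. Tax1bp1, a receptor in the clearance of aggregates, had 87.6 and 98.9 FPKM with PAGln and 102 and 82.2 FPKM in control, high in the libraries where Sqstm1 was low. Nbr1, a partner of p62, shared the upper pair of Tax1bp1 with 36.4 and 39.4 FPKM in PAGln and 38.3 and 35.1 FPKM in control. Optn, optineurin, a receptor for damaged mitochondria, was the steadiest member, at 11.5 and 11.4 FPKM with PAGln and 11.6 and 11.2 FPKM in control. The share of Sqstm1 in the receptor sum was 65.8% and 59.9% with PAGln and 60.8% and 69.4% in control, so its range within each group spanned more than the difference between groups.

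**Figure D3:**
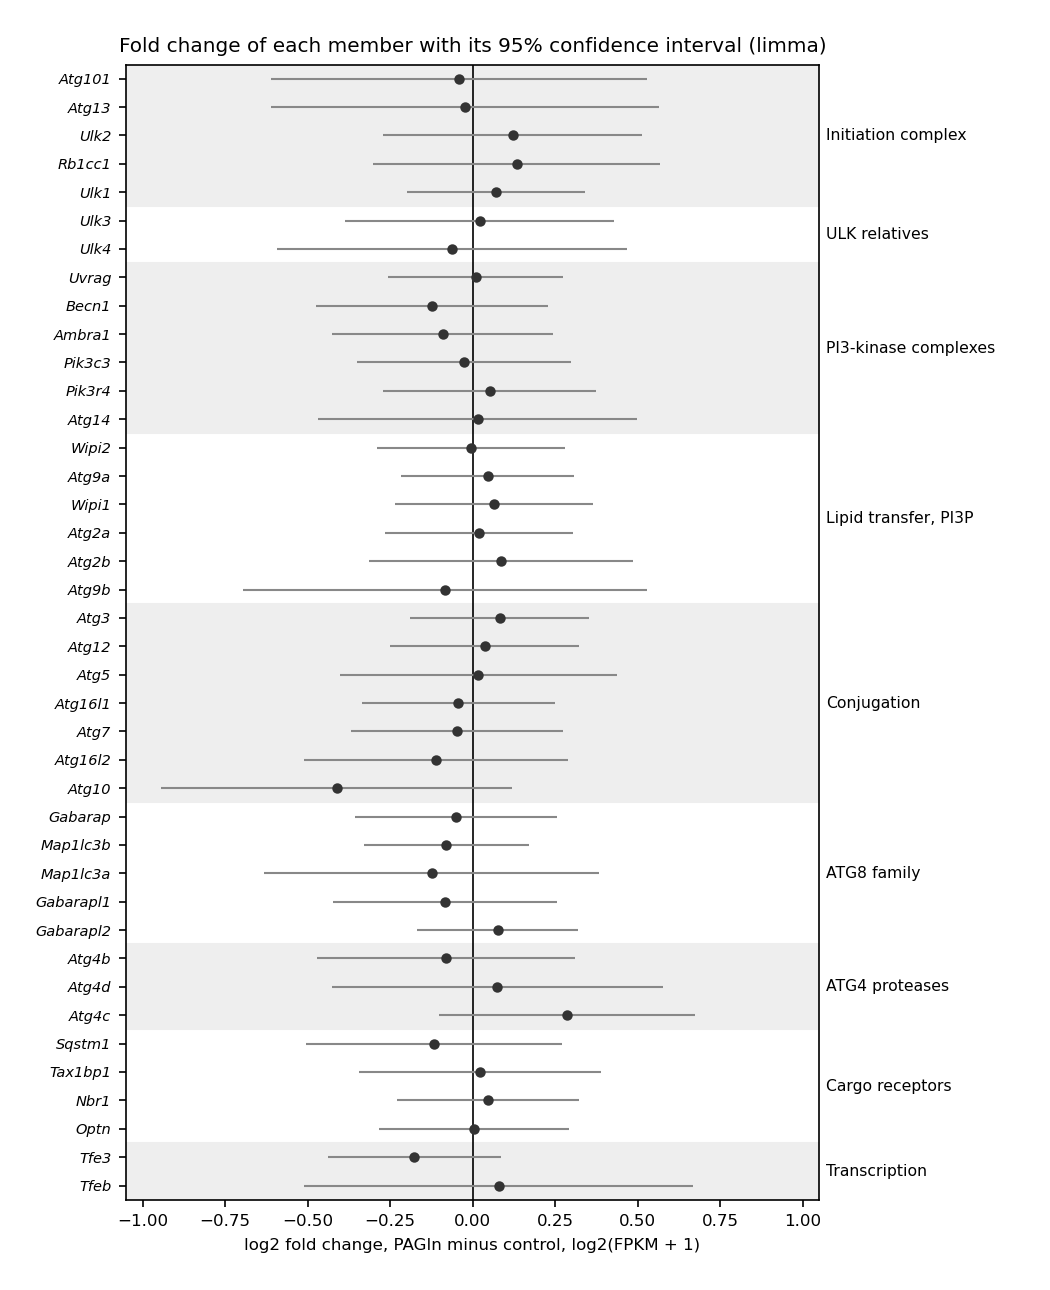
Log2 fold change of each of the 40 members, PAGln minus control on log2(FPKM + 1), with the 95% confidence interval from limma (2 libraries a group). Every interval includes 0, and Atg10 (-0.41) and Atg4c (0.29) lie farthest from it.

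In 8 of the 40 members (20.0%) both PAGln libraries lay on the same side of both control libraries, beside 23.1% of all tested genes. The 4 above were Gabarapl2, Ulk1, Pik3r4 and Atg4c, beside a background of 11.5%, and the 4 below were Map1lc3b, Tfe3, Atg10 and Ulk4, beside 11.6%. These shares are near the background. By role, the median log2 fold change lay between -0.079 for the ATG8 family and 0.075 for the ATG4 proteases. In the members as over all tested genes, the highest libraries were more often a PAGln and a control library together. Most of the possible pairs of libraries are of that mixed kind. PAGln 1 and control 2 were the upper pair in 15 members (37.5%, beside 28.8% of tested genes), among them Sqstm1, Gabarap, Map1lc3a, Gabarapl1, Atg101, Becn1, Atg4b, Atg4d, Atg14 and Tfeb. PAGln 2 and control 1 were the upper pair in 10 members (25.0%, beside 28.1%), namely Tax1bp1, Uvrag, Nbr1, Wipi1, Atg12, Atg13, Ulk2, Rb1cc1, Atg2a and Atg2b.

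Listed gene length differed between these sets of members. The 15 members high in PAGln 1 and control 2 had a median listed length of 1939 bases and the 10 members high in PAGln 2 and control 1 had 3907 bases. Among the 20 members at or under the median length of 2462 bases, the median deviation from a gene's 4-library mean was 0.052 in PAGln 1 and -0.10 in PAGln 2, and -0.063 in control 1 and 0.075 in control 2, on the log2 scale. In the 20 longer members it was -0.0051 and 0.022 in PAGln 1 and 2, and 0.010 and -0.034 in control 1 and 2. Across the 40 members, which share libraries, the Pearson correlation of log2 length with the deviation was -0.29 in PAGln 1, 0.46 in PAGln 2, 0.20 in control 1 and -0.42 in control 2. Over all tested genes it was -0.077, 0.12, 0.11 and -0.14 in the same order of libraries. Members on the other side of the median length were 4 of the 15 (Becn1, Atg14, Atg16l1 and Atg7) and 2 of the 10 (Atg13 and Wipi1). The part of length in the values was not tested.

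**Figure D4:**
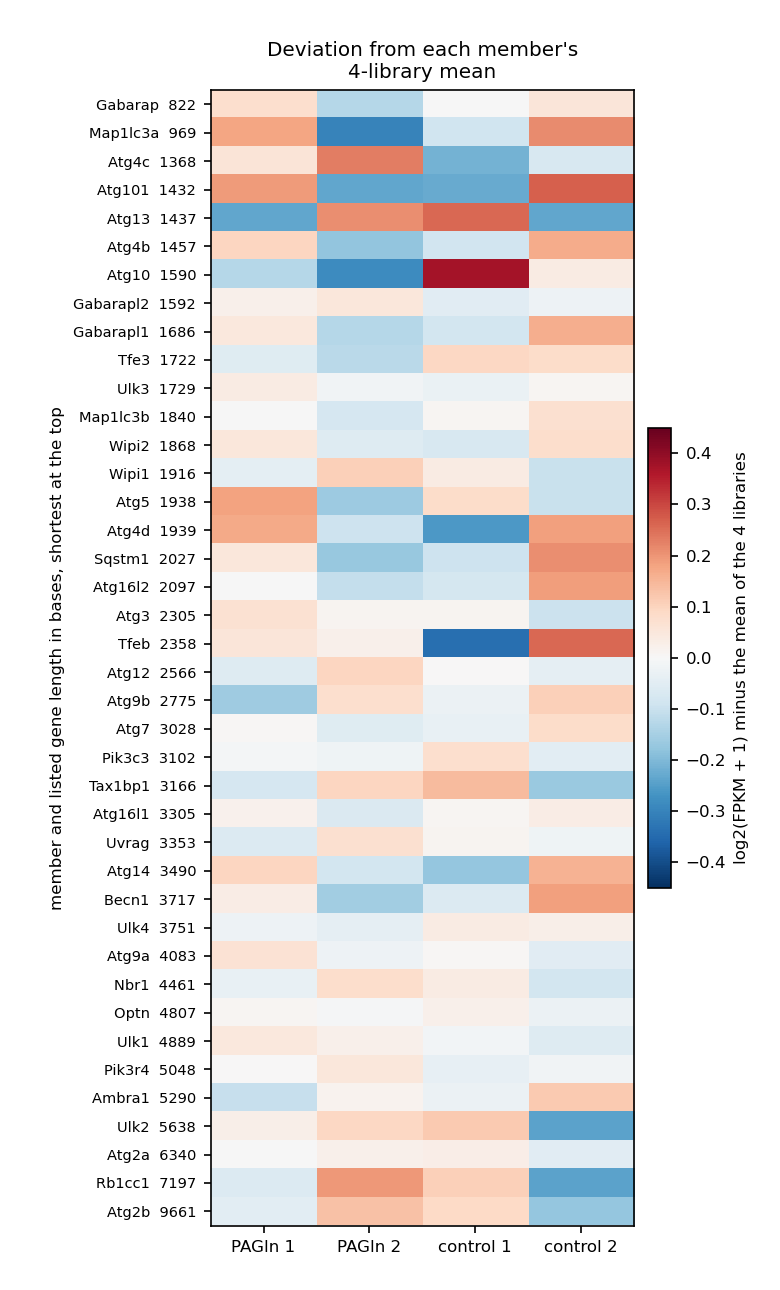
Deviation of each member from its own 4-library mean on log2(FPKM + 1), 1 column per library, members ordered by listed gene length from 822 bases (Gabarap) to 9661 bases (Atg2b). PAGln 1 resembles control 2 and PAGln 2 resembles control 1 in many rows, and both treatment groups hold red and blue cells for most members.

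Members were spread over the genome, with 6 on chromosome 10. Atg13 and Ambra1 lie 33060 bases apart on chromosome 3 and Becn1 and Nbr1 234353 bases apart on chromosome 10, and neither pair shared its order of libraries. Sqstm1, Wipi1 and Atg9b each overlap a protein-coding gene on the opposite strand (Mrnip, Arsg and Nos3, with means of 1.78, 6.24 and 0.264 FPKM). As the use of strand in counting is not given, reads there cannot be assigned with certainty. No other named gene was found to carry a member's description, and 1 locus without a gene name was matched to ULK4 in the files. Paralog reads of the LC3 and GABARAP genes may still have been shared.

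Genes around the core pathway behaved alike. Of 81 further listed genes in 5 lists, 75 had a row and 73 reached the filter. None passed limma and, without a block, none had an unadjusted p under 0.05 with all 4 libraries, with voom also at 0. Of the 73, 38 were higher and 35 lower, with a median log2 fold change of 0.00089, and both PAGln libraries lay to the same side of both controls in 20.5%, beside 23.1% of tested genes.

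Upstream kinases and their regulators (mTORC1, AMPK, TSC and the Rag GTPases) had 9 of 17 higher. The most abundant, Lamtor1, a lysosomal anchor of mTORC1, had 105 and 107 FPKM with PAGln and 104 and 118 FPKM in control. Prkaa1, a catalytic subunit of AMPK, had the smallest p of the list, at 13.1 and 15.8 FPKM with PAGln and 13.7 and 11.3 FPKM in control (log2 fold change 0.19, 95% interval -0.21 to 0.59). Genes of membrane remodelling and Beclin 1 partners had 6 of 15 higher, led by Vmp1, an ER scramblase, at 93.3 and 98.7 FPKM with PAGln and 92.0 and 91.8 FPKM in control. Zfyve1, a marker of the membrane platform from which autophagosomes form, had 9.07 and 9.39 FPKM with PAGln and 10.2 and 10.6 FPKM in control (log2 fold change -0.16, 95% interval -0.46 to 0.14). Its libraries did not overlap between groups.

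Fusion genes had 8 of 15 higher, led by the lysosomal membrane protein Lamp1 at 475 and 424 FPKM with PAGln and 439 and 466 FPKM in control. Vps18, a subunit of the HOPS tether, had the smallest p of that list, at 9.33 and 7.64 FPKM with PAGln and 9.83 and 10.0 FPKM in control (log2 fold change -0.21, 95% interval -0.58 to 0.15). Receptors for selective autophagy of mitochondria, ER and ferritin had 11 of 18 higher. Fundc1, a mitochondrial receptor, had the smallest p of all 73, with 15.1 and 14.4 FPKM in PAGln and 12.6 and 12.1 FPKM in control. Its groups did not overlap, and the log2 difference was 0.24 (SE 0.11, 95% interval -0.048 to 0.52, limma adjusted p = 1.00). The ER receptor Rtn3 was the most abundant of that list, at 111 and 113 FPKM with PAGln and 107 and 104 FPKM in control.

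Regulators of transcription had 4 of 8 higher. Mcoln1, the lysosomal calcium channel upstream of TFEB, had 49.6 and 42.8 FPKM with PAGln and 44.7 and 47.2 FPKM in control. Fnip2, a partner of folliculin, had 10.3 and 13.6 FPKM with PAGln and 12.6 and 8.16 FPKM in control, with PAGln 2 and control 1 high as in Atg13.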

How the data were processed

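RNA of 2 PAGln and 2 control libraries was sequenced, and groups were taken from the treatment label. Per the labels, libraries were made with a TruSeq kit, and the labels give 2 different numbers of repeats. The authors deposited FPKM per gene, 1 table per library, with a gene length per the file headers. Bowtie 0.12.2 and hg38 are listed per the submitters' processing notes. That build is human, whereas the gene identifiers are rat Ensembl ones. The counting tool, rat build and strand setting were not given in the sources used here.

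FPKM times length was a whole multiple of 1 step per library for 100% of non-zero values (within 0.01 of a read), which gave the recovered reads if the smallest step is 1 read. Intervals on reads cover counting error only. Values were set to log2(FPKM + 1) and the 12334 genes whose mean reached 1 FPKM were tested with limma 3.58.1 under R 4.3.3 (eBayes with a trend, two-sided, no covariate). P-values were adjusted over all of them by Benjamini-Hochberg, and 0.05 was the threshold. Log2 fold changes, also called log2 differences, take PAGln minus control and understate the change of low genes.

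Members and lists were chosen with earlier results of these data known. Statistics were given for the 8 members with the smallest p and the most abundant member of each role. In each further list the most abundant gene and that with the smallest p were named with their levels. Of these, Prkaa1, Zfyve1, Vps18 and Fundc1 were given a main log2 fold change with its interval. Intervals of other members described were added after their values were seen. Alternatives were a pseudocount of 0.1, no filter, a filter of 5 FPKM, median-ratio scaling, voom on recovered reads, a replicate block and leaving out each library.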

Additional observations from a re-analysis of the deposited data

Results flagged for a closer look

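A locus without a gene name, which the deposited annotation matches to the ULK4 protein, carried more reads with PAGln than in control, in rows that no comparison above used. The locus lies on chromosome 8 from 129922942 to 129927732, on the minus strand like Ulk4. It is 3822 bases beyond the higher end coordinate of Ulk4, which on that strand is the side of the gene's start. It had 7 and 6 reads with PAGln (13 in all; 1.03 and 0.880 FPKM) and 2 and 1 reads in control (3 in all; 0.269 and 0.133 FPKM). Per read sequenced the PAGln total was 4.79 times the control total, with an exact 95% interval of 1.32 to 26.2 that covers counting error only. Ulk4 itself had 74 and 73 reads with PAGln and 87 and 87 in control. The mean of the locus, 0.579 FPKM, lay under the filter, so it was not among the 12334 genes tested. With no filter limma gave it a log2 fold change of 0.71 (SE 0.11, 95% interval 0.39 to 1.03, adjusted p = 0.958), with both PAGln libraries above both control libraries. On log2(FPKM + 1) the spread of values near 0 is narrowed. That SE and interval therefore do not carry the counting error of so few reads. The locus was chosen after its values were seen.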

How the results depend on the processing

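The member and related counts of 0 called, the number of members higher (18 to 21) and both list medians (members -0.026 to 0.011, related genes -0.016 to 0.018) kept within the limits set for them in all alternatives run. For the number of members higher the limit was a factor of 1.5 from the main count, which is a weak check. With the filter of 5 FPKM that number was 19 of 35 members. For a median the limit was the pooled SD of the list median between libraries, 0.196 for members and 0.0484 for related genes. The members' limit is far wider than their main median of 0.0073, so keeping within it is a weak check. The sign of the members' median turned without control 1, control 2 or PAGln 1. Over all genes the count called was 7 with the replicate block, against 0 without it, and 1 to 13 with a library left out (control 1 out gave 2, control 2 out gave 1, PAGln 1 out gave 5, PAGln 2 out gave 13). Those fits take the spread of a lone library from the other group. Of 26 named genes, 12 kept their direction in all alternatives and 14 turned with a library left out, with log2 fold changes of Atg101 (-0.29 to 0.21), Atg4b (-0.22 to 0.057), Becn1 (-0.25 to 0.000398), Fnip2 (-0.086 to 0.49), Gabarap (-0.15 to 0.052), Lamp1 (-0.094 to 0.068), Lamtor1 (-0.16 to 0.024), Mcoln1 (-0.10 to 0.11), Rb1cc1 (-0.041 to 0.31), Sqstm1 (-0.27 to 0.034), Ulk2 (-0.058 to 0.30), Ulk3 (-0.0035 to 0.047), Uvrag (-0.058 to 0.077), Wipi2 (-0.081 to 0.071). Among those that kept it, values moved by over 1.5 times from the main fit in Atg10 (-0.58 to -0.24), Atg3 (0.028 to 0.14), Map1lc3b (-0.12 to -0.042), Prkaa1 (0.061 to 0.32), Vmp1 (0.021 to 0.10) and Vps18 (-0.34 to -0.083). Atg4c ran from 0.20 to 0.37 with a library left out. No limma adjusted p of a named gene fell under 0.67. Deviations of same-numbered libraries from their group means correlated at -0.28 over all tested genes and -0.60 over the members. With 2 libraries a group the deviations mirror each other, so the crossed pairing gives the same values with the sign turned. These values therefore cannot show whether the numbers pair the libraries. The replicate block called 0 members. A crossed block, added after seeing the data, called 0 members and 0 genes over all, with 0 members, 2 related genes and 899 genes at an unadjusted p under 0.05, against 0, 0 and 262 without a block. Without control 1, 1 related gene had such a p. Depth limits Atg9b, Atg10 and Ulk4 most, at 34 to 87 reads a library.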

Other observations

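Some of the further genes, chosen here after their values were seen, differed more between libraries of a group than most members did. Rubcn, a brake on the lipid kinase complex, had 18.3 and 24.7 FPKM with PAGln and 23.7 and 15.9 FPKM in control. PAGln 2 and control 1 were its high libraries. Vamp8, a SNARE of autophagosome fusion, had 146 and 107 FPKM with PAGln and 103 and 159 FPKM in control, with the opposite pair high. Tex264, a receptor for the ER, had 68.6 and 51.0 FPKM with PAGln and 60.4 and 74.8 FPKM in control, with the same upper pair as Vamp8.

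Calcoco1, a receptor for ER and Golgi membranes, was listed at 0 in all 4 libraries, while the related receptor Tax1bp1 was among the 4 most abundant members. Tfec, a relative of Tfeb and Tfe3, lay under the filter at 0.273 and 0.271 FPKM with PAGln and 0.124 and 0 FPKM in control, and Mitf had 2.69 and 2.53 FPKM with PAGln and 3.64 and 2.39 FPKM in control.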
